A study of Bos taurus with 34 samples.

Results

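The comparison described here asks whether the knockout of CSF2RA changed gene expression differently in bovine morulae and in bovine blastocysts. It used all 34 of the 34 embryos in the series, each a single preimplantation embryo sequenced on its own. They comprised 4 knockout morulae, 4 control morulae, 9 knockout blastocysts and 17 control blastocysts. Genotype was read from the sample titles, which write the knockout as CSF2KO, while the series title and design name CSF2RA, the receptor gene. Stage and sex were also read from the labels. The knockout morulae were 3 females and 1 male and the control morulae 1 female and 3 males. Among blastocysts the knockouts were 7 females and 2 males and the controls 8 females and 9 males. All 4 groups carry the same protocol labels, which give added recombinant Wnt5A and development in vitro, whereas the series speaks of embryos in utero or produced in vivo. Nothing in the labels says how many edited clones, sires or culture batches the embryos came from, so p-values measure the spread between embryos alone.

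CSF2 is a cytokine that the oviduct and uterus secrete around the embryo. Its receptor pairs a ligand-binding subunit, CSF2RA, with a signalling subunit, CSF2RB, and acts through JAK2, STAT5, MAP kinase and PI3 kinase. Between the morula and the blastocyst the outer cells polarise, form tight junctions and become trophectoderm. That epithelium pumps ions and water into the blastocoel, while the inner cells become epiblast and hypoblast.

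Neither receptor gene could be followed across the stages. CSF2RA had 4 reads in the 26 blastocysts together, 2 in knockouts and 2 in controls, and CSF2RB had 6, 3 in each genotype. Neither is in the morula table, so neither enters the joined data, and the knockout itself was not checked by its transcript.

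The quantity tested was the interaction. It is the knockout minus control difference in blastocysts minus the same difference in morulae, on the scale log2(CPM + 10), where CPM is the usual depth-scaled read count after joint scaling of all embryos. A positive coefficient means that the knockout difference was more positive in blastocysts than in morulae. It was fitted by limma with sex as a term to 9979 genes with at least 10 CPM in at least 4 embryos, out of 14494 genes shared by the tables.

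The libraries were unequal, and this touches each result below. Read totals in shared genes ran from 43672 to 124584 in knockout morulae and from 93885 to 1526404 in control morulae. They ran from 44539 to 987641 in knockout blastocysts and from 115391 to 17579784 in control blastocysts. At equal depth of 43672 reads, knockout morulae had reads in 3085 to 6937 genes and control morulae in 6350 to 7163. Knockout blastocysts had reads in 6349 to 7123 genes and control blastocysts in 1740 to 7118. The interaction for this number was 1878.8 genes (exact permutation of genotype within stage, two-sided p = 0.0623, adjusted p = 0.281 over 6 library measures). Without knockout morula 1 it was 2464.4 genes (exact p = 0.0134), and without the 4 doubted libraries named below it was 417.6 genes (exact p = 0.41). The 10 largest genes took 16.3% to 77.6% of reads in knockout morulae and 14.8% to 34.1% in control morulae (interaction −22.7 percentage points, exact p = 0.168, adjusted p = 0.281; without knockout morula 1, −33.0 points, exact p = 0.0406; without the 4 doubted libraries, −1.94 points, exact p = 0.838). Knockout morulae 21 and 49, control blastocyst 12 and knockout blastocyst 57 are the 4 doubted libraries, named as such in an earlier look at these data. Control blastocyst 12 had reads in 2625 genes from 878787 reads, and knockout blastocyst 57 was the shallowest blastocyst. The part of these library differences in the results was not tested.

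**Figure D1:**
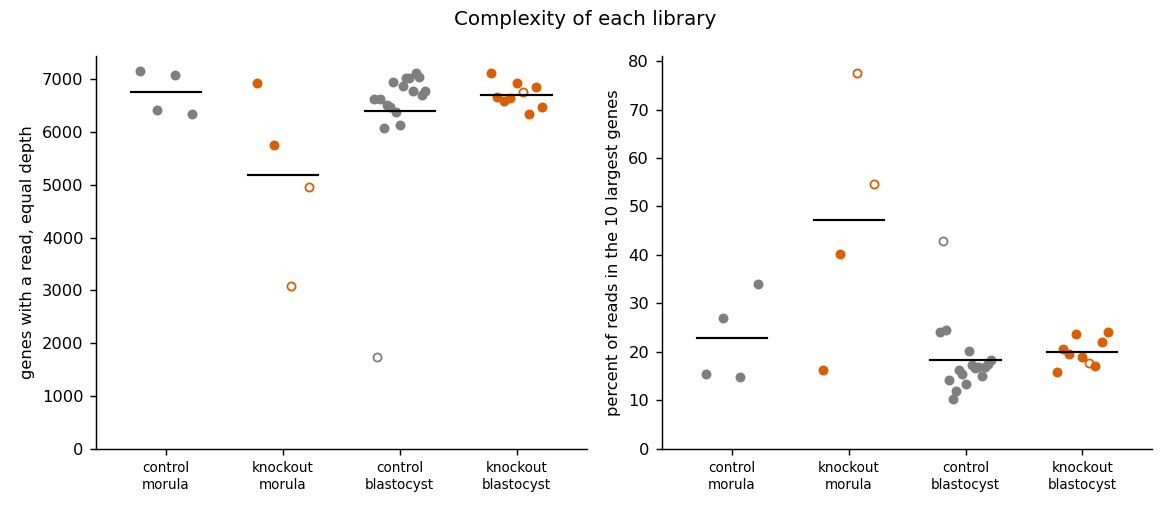
Each point is 1 embryo, placed by group, with open points for the 4 doubted libraries and a line at the group mean. The left axis counts genes with a read after thinning each embryo to 43672 reads, where knockout morulae span 3085 to 6937. The right axis gives the percent of reads in the 10 largest genes, where knockout morulae span 16.3% to 77.6%.

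Markers of the embryonic lineages were read in each group, and none of those given here separated the stages fully. Counts of embryos with a read are not at equal depth. The trophectoderm keratin KRT8 ranged from 73.1 to 5664 CPM in knockout morulae and from 7862 to 10494 CPM in control morulae. It ranged from 5561 to 14385 CPM in knockout blastocysts and from 483 to 18192 CPM in control blastocysts. KRT18 did not overlap between the morula groups either (164.5 to 4548.5 CPM in knockouts and 6688 to 9678 CPM in controls). GATA2, a trophectoderm transcription factor, had reads in all 34 embryos. It ranged from 364 to 713 CPM in knockout morulae and from 445 to 623 CPM in control morulae, with overlap. CDX2 (0 to 98.5 and 16.6 to 121 CPM) and GATA3 (0 to 252 and 175 to 395 CPM) overlapped there too. So did TFAP2A, NANOG, GATA6 and SOX17. The pluripotency factor POU5F1 had reads in 3 of 4 knockout morulae, 4 of 4 control morulae, 9 of 9 knockout blastocysts and 16 of 17 control blastocysts. It ranged from 0 to 1105 CPM (median 488) in knockout morulae and from 253 to 611 CPM (median 352) in control morulae. GATA4, a later hypoblast marker, had no read in knockout morulae and reads in 2 of 4 control morulae, 8 of 9 knockout blastocysts and 16 of 17 control blastocysts. SOX2 was not analysed here.

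RNA from other cells was looked for with 5 marker lists. Of the 11 cumulus cell markers in the joined table, 4 had a read in knockout morulae and 10 in control morulae. FSHR, INHBA, HAS2, TNFAIP6, FOXL2, NR5A1 and STAR were those at 0 in knockout morulae. Over the control morulae STAR had 33 reads and the others 2 to 10, and these counts are not at equal depth. The summed cumulus markers ran from 0 to 140 CPM in knockout morulae, from 82.9 to 472 CPM in control morulae, from 16.7 to 542 CPM in knockout blastocysts and from 0 to 626 CPM in control blastocysts. HSD3B1 had the most reads of these markers in each group. It had 14 in knockout morulae, 219 in control morulae, 531 in knockout blastocysts and 3308 in control blastocysts. In control blastocysts CYP11A1 and STAR followed with 2039 and 567 reads, and the other cumulus markers had 6 to 213. The summed cumulus markers there rest mostly on HSD3B1, CYP11A1 and STAR. Summed leukocyte markers ran from 0 to 347 CPM and from 12.1 to 538 CPM in knockout and control morulae, and from 0 to 23.8 CPM and from 0 to 1319 CPM in knockout and control blastocysts. Fibroblast markers ran from 0 to 146 CPM and from 39 to 296.5 CPM in knockout and control morulae, and from 16.7 to 85.8 CPM and from 2.09 to 133 CPM in knockout and control blastocysts. Markers of oviduct and uterine epithelium reached 5995 CPM in 1 knockout morula, and lactoferrin (LTF) had 325 reads over the 4 knockout morulae. Their highest sums were 307 CPM in control morulae, 651 CPM in knockout blastocysts and 1868 CPM in control blastocysts. Erythrocyte markers stayed between 0 and 143 CPM in all groups. Of these lists 17 genes passed the filter and none had an adjusted p under the threshold, and their part in the results was not tested.

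Across all tested genes the coefficients lay above 0 more often than below. Of 9979 genes, 7375 (73.9%) had a positive coefficient, and the median was 0.43 with a median SE of 0.61. At an unadjusted p under 0.05 there were 1211 positive genes (12.1% of those tested) and 123 negative genes (1.23%). After Benjamini-Hochberg adjustment 3 genes (0.0301%) passed, all positive. The shift of the median depends on scaling. It was 0.48 with median-of-ratios scaling, 0.59 with total-read scaling and −0.04 with quantile normalization, which gives every embryo the same distribution. With quantile normalization the unadjusted counts were 616 positive and 589 negative. Gene lists below are therefore set against the median of all genes.

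**Figure D2:**
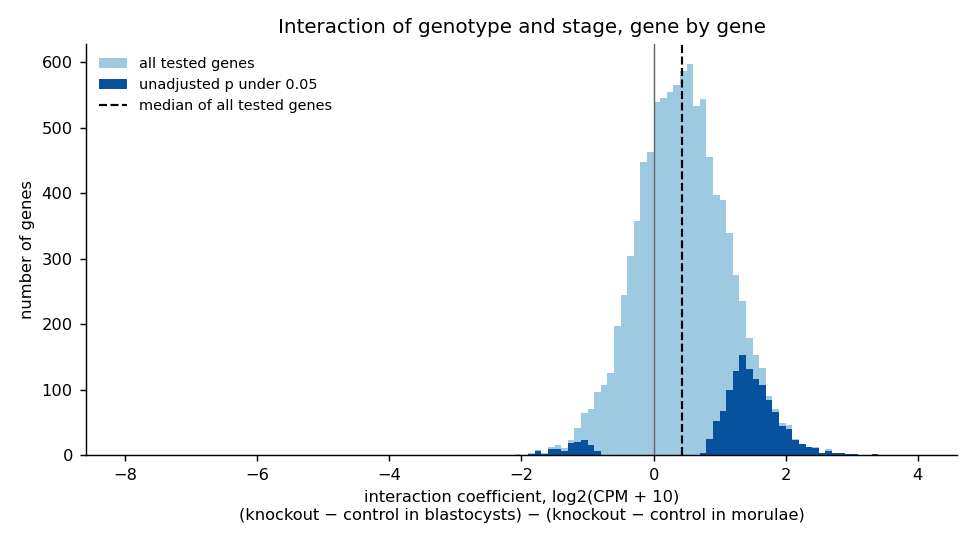
The horizontal axis is the interaction coefficient on the log2(CPM + 10) scale and the vertical axis the number of genes. Light bars hold all 9979 tested genes, dark bars those with an unadjusted p under 0.05, and the dashed line is the median of 0.43. Dark bars to the right (1211 genes) far outnumber those to the left (123 genes).

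Some genes had no read at all in knockout morulae. There were 239 genes (2.4%) with 0 reads in each of the 4 knockout morulae and a read in each of the 4 control morulae, and 0 genes the other way round. With all embryos thinned to the same depth these counts were 70 and 3. A count of 0 over the knockout morulae allows a pooled level of up to 10.1 CPM (3 reads), and 1 read alone was worth 8.95 to 28.0 CPM there. Such limits cover counting error only.

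RBM19, RAPGEF5 and MOB3B were the genes that passed the interaction test in the limma fit of all 34 embryos. RBM19 (ENSBTAG00000031824, chromosome 17, 60618709 to 60739666 on ARS-UCD1.2) encodes a nucleolar RNA-binding protein of ribosome biogenesis that mouse embryos need before implantation. Its level was 26.9, 83.2, 42.6 and 54.9 CPM in control morulae 39, 41, 54 and 73, and 0 in knockout morulae 1, 5, 21 and 49. Knockout blastocysts ran from 38.1 to 55.5 CPM (median 48.7) and control blastocysts from 0 to 89.3 CPM (median 34.2). The morula groups did not overlap, the blastocyst groups did, and the only blastocyst at 0 was control 12. The coefficient was 2.96 ± 0.56 (SE; limma adjusted p = 0.00996).

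RAPGEF5 (ENSBTAG00000015539, chromosome 4, 30909069 to 31143356) encodes an exchange factor that activates Rap GTPases. Control morulae 39, 41, 54 and 73 held 35.1, 51.5, 28.4 and 22.0 CPM, and all 4 knockout morulae held 0. The range in knockout blastocysts was 19.0 to 64.3 CPM (median 38.1) and in control blastocysts 0 to 38.9 CPM (median 25.1). Again the morula groups did not overlap and the blastocyst groups did. The coefficient was 2.80 ± 0.54 (SE; limma adjusted p = 0.00996).

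MOB3B (ENSBTAG00000000804, chromosome 8, 16757261 to 16972790) belongs to the MOB family of kinase co-activators. It was read at 31.3, 43.6, 47.4 and 54.9 CPM in control morulae 39, 41, 54 and 73. Knockout morula 1 held 8.95 CPM, which is 1 read, and the other 3 held 0. Knockout blastocysts ran from 22.3 to 80.4 CPM (median 45.1) and control blastocysts from 0 to 54 CPM (median 34.7). The coefficient was 2.70 ± 0.57 (SE; limma adjusted p = 0.0351).

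Because 2 of these genes had no read in any knockout morula, their coefficients move with the pseudocount and are no bounds on a fold change. Of the 34 fits that each left out 1 embryo, RBM19 and RAPGEF5 passed in 34 and MOB3B in 24. Of 22 other ways of processing, RBM19 passed in 18, RAPGEF5 in 14 and MOB3B in 13, and each coefficient was positive in all 56 fits. None of the 3 passed after thinning to equal depth or by voom, with or without sample quality weights. With sex terms that could differ by stage, RBM19 passed (limma adjusted p = 0.0258). RAPGEF5 and MOB3B did not in that fit (0.0962 each). Females alone include 1 control morula, and there the coefficients were 3.32 for RBM19, 2.51 for RAPGEF5 and 3.44 for MOB3B. The adjusted p after thinning was 0.522 for RBM19, 0.526 for RAPGEF5 and 0.4497 for MOB3B.

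**Figure D3:**
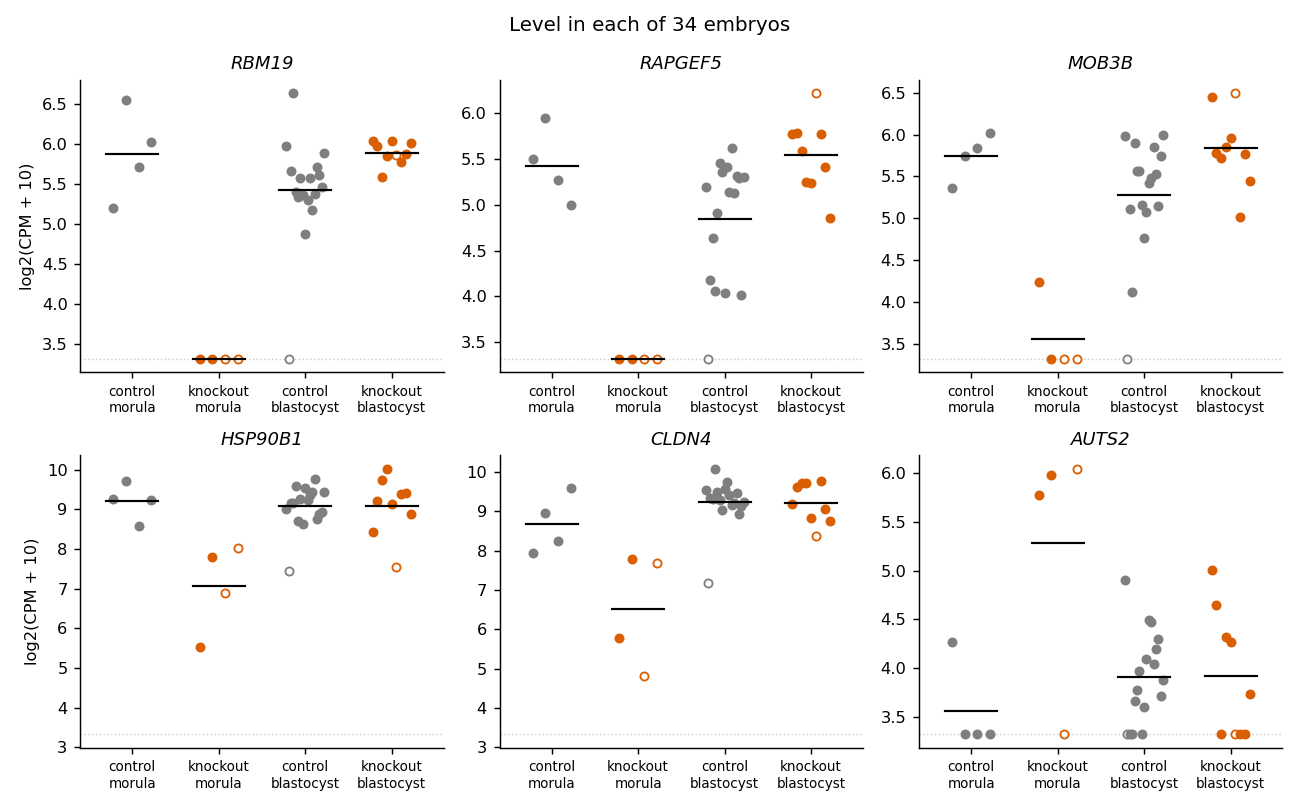
Each point is 1 embryo on the log2(CPM + 10) scale, open for the 4 doubted libraries, with a line at the group mean and a dotted line at 0 reads. For RBM19, RAPGEF5 and MOB3B the knockout morulae lie at or near the dotted line and below all control morulae, while blastocyst groups overlap. HSP90B1 and CLDN4 are lower in knockout than in control morulae without reaching 0, and AUTS2 has the opposite order in 3 of 4 knockout morulae.

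The number of genes called rested on a few embryos. Without control blastocyst 12, 160 of 9844 genes (1.63%) were called, 154 positive and 6 negative. Without knockout morula 5 there were 53 calls, without knockout morula 1 there were 7, without knockout morula 21 there were 6 and without knockout blastocyst 57 there were 5. Without the 4 doubted libraries, 61 of 9704 genes (0.629%) were called, 56 positive and 5 negative, and the median coefficient was 0.15. That fit holds 2 knockout morulae, 1 and 5. The lists of 160 and 61 genes share 28, which is 17.5% of the first and 45.9% of the second, and RBM19, RAPGEF5 and MOB3B are in both.

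Below the threshold with all 34 embryos, the 9 positive genes with the next smallest p were GBE1, PRKDC, SPSB4, GCA, PTPRJ, INTS6, ELAVL1, CAMK2G and SUV39H1. Their coefficients ran from 1.74 (SUV39H1) to 3.31 (GCA), with limma adjusted p from 0.0673 to 0.116. Together with the called 3, 11 of these 12 genes had every knockout morula below every control morula, and 6 had no read in knockout morulae. The 12 were ranked on these same values, and the share of all tested genes with such separated morulae was not counted. Of all tested genes, 2.4% had no read in knockout morulae and a read in each control morula. All 12 of the ranked genes were at 0 in control blastocyst 12. That embryo had reads in only 2625 of the 14494 genes shared by the tables, so most genes are at 0 there. All 12 passed without that embryo, where 1.63% of all tested genes did. Without the 4 doubted libraries 9 passed, where 0.629% of all tested genes did. GBE1, the glycogen branching enzyme, was at 24.7, 31.7, 52.1 and 65.9 CPM in control morulae and 0 in the knockout morulae. Its coefficient was 2.40 ± 0.55 (SE; limma adjusted p = 0.0673), or 2.58 ± 0.53 without the 4 doubted libraries (adjusted p = 0.00832).

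ELAVL1, which binds and stabilises AU-rich messenger RNAs, was at 83.4, 67.3, 178 and 110 CPM in control morulae 39, 41, 54 and 73. Knockout morulae 1 and 21 held 0, knockout 5 held 10.6 CPM and knockout 49 held 56.0 CPM, so the groups did not overlap. The range in knockout blastocysts was 47.7 to 102.8 CPM (median 77.8) and in control blastocysts 0 to 129 CPM (median 75.4). The coefficient was 2.84 ± 0.69 (limma adjusted p = 0.0934), and 3.23 ± 0.59 without the 4 doubted libraries (adjusted p = 0.00268). PTPRJ, a receptor tyrosine phosphatase, had 42.6 to 95.1 CPM in control morulae and 0 in knockout morulae. Its medians in knockout and control blastocysts were 57.9 and 90.3 CPM. PRKDC, the catalytic subunit of the DNA-dependent protein kinase, and SUV39H1, a histone H3 lysine methyltransferase, were also at 0 in the knockout morulae. They had 7.92 to 30.8 CPM and 8.78 to 43.9 CPM in control morulae, where 0 reads over the knockout morulae allow up to 10.1 CPM.

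No gene passed with a negative coefficient in the limma-trend fit of all 34 embryos. CCNA1 passed with a negative coefficient by voom with sample quality weights and with sample weights, and PRDM12 and RHBDD2 did with a pseudocount of 50 CPM. PRDM12 also did with the deposited RPKM of each table. The 12 negative genes with the smallest p were CCNA1, RHBDD2, PRDM12, KBTBD8, JAG2, AUTS2, ZNF774, CEP131, SH3BP2, MISP3, RNF215 and ETV2. Their coefficients ran from −2.22 (JAG2) to −1.41 (ETV2), with limma adjusted p from 0.127 to 0.174. They rest on 6 to 25 reads each over the 4 knockout morulae. For 5 of the 12 every knockout morula lay above every control morula, 5 passed without control blastocyst 12, and 2 of 11 tested passed without the 4 doubted libraries. Those 2 were AUTS2, a regulator of neural development, and SH3BP2, a signalling adaptor. The negative genes too were ranked on these same values, and the share of all tested genes with knockout morulae above all controls was not counted.

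AUTS2 was at 44.8, 53.1, 0 and 56.0 CPM in knockout morulae 1, 5, 21 and 49, and at 9.33 CPM in control morula 39 and 0 in the other 3. The morula groups overlapped through knockout 21. Both blastocyst groups reached down to 0, with highest values of 22.2 CPM in knockouts and 19.9 CPM in controls. The coefficient was −1.71 ± 0.49 (SE; limma adjusted p = 0.135), and −2.15 ± 0.50 without the 4 doubted libraries (adjusted p = 0.0251). JAG2, a Notch ligand, was at 80.6, 53.1, 164 and 56.0 CPM in knockout morulae 1, 5, 21 and 49 and at 3.96 to 22.0 CPM in control morulae. In blastocysts its medians were 29.4 CPM in knockouts and 31.5 CPM in controls, and the coefficient was −2.22 ± 0.63 (limma adjusted p = 0.127).

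Gene lists were described by their counts and medians, with no test of a list. In none of the lists did a member pass in the limma-trend fit of all 34 embryos, though other ways of processing those embryos called some, as given below for PAG2. The trophectoderm list had 26 of 34 genes tested. Of these 23 (88.5%) were positive, against 73.9% of all tested genes, and 21 lay above the median of all genes. At an unadjusted p under 0.05, 10 (38.5%) were positive, against 12.1% of all tested genes. The median coefficient was 1.33, against 0.43 for all genes, and 0.85 against 0.15 without the 4 doubted libraries. With quantile normalization it was 0.82 against −0.04. In bulk RNA of an embryo, fewer cells of a type and less RNA per cell cannot be told apart.

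PAG2, a pregnancy-associated glycoprotein of trophoblast, was at 70.8, 234, 92.4 and 450 CPM in control morulae 39, 41, 54 and 73. Knockout morulae 1 and 5 held 17.9 and 21.3 CPM, and knockouts 21 and 49 held 0. Knockout blastocysts ran from 55.5 to 399 CPM (median 255) and control blastocysts from 0 to 684 CPM (median 240). The morula groups did not overlap and the blastocyst groups did. Its coefficient was 3.22 ± 0.87 (SE; limma adjusted p = 0.127), and PAG2 was the gene that passed after thinning to equal depth (adjusted p = 0.011). It passed without control blastocyst 12 (adjusted p = 0.0137) and did not without the 4 doubted libraries (2.38 ± 0.73, adjusted p = 0.114).

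PLAU, the urokinase plasminogen activator, had a coefficient of 3.32 ± 0.93 (limma adjusted p = 0.127). It passed without control blastocyst 12 (adjusted p = 0.0148) and without the 4 doubted libraries (0.038). Control morulae held 140 to 615 CPM and knockout morulae 0 to 84.0 CPM, without overlap. PTGS2, the inducible prostaglandin synthase, had 362 to 648 CPM in control morulae. Knockout morulae 1, 5, 21 and 49 held 17.9, 21.3, 0 and 280 CPM. Its coefficient was 3.08 ± 1.10 (limma adjusted p = 0.201), and it passed without the 4 doubted libraries at 3.80 ± 0.62 (adjusted p = 0.000955). That fit leaves out knockout morula 49, the one nearest the controls for PTGS2, and knockout morula 21. IFNT3, an interferon tau gene whose near-identical copies can share reads, had a coefficient of 2.02 ± 0.62 (limma adjusted p = 0.145). It was at 0 in the 4 knockout morulae and in control morula 54.

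Genes of the endoplasmic reticulum chaperones and the unfolded protein response were also mostly positive. All 29 were tested, and 26 (89.7%) were positive, against 73.9% of all tested genes. Of the 29, 23 lay above the median of all genes. At an unadjusted p under 0.05, 8 (27.6%) were positive, against 12.1% of all tested genes. The median was 1.06, or 0.91 without the 4 doubted libraries and 0.83 with quantile normalization. Without the 4 doubted libraries 4 of the 29 passed, HSP90B1, HSPA5, CRELD2 and SEL1L, where 0.629% of all genes did.

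HSP90B1, the reticulum's HSP90, was at 610, 828, 377 and 593 CPM in control morulae 39, 41, 54 and 73. Knockout morulae 1, 5, 21 and 49 held 35.8, 213, 110 and 252 CPM. The range in knockout blastocysts was 177 to 1034 CPM (median 587) and in control blastocysts 163 to 864 CPM (median 566). Every knockout morula lay below every control morula, and the blastocyst groups overlapped almost fully. The coefficient was 2.19 ± 0.79 (SE; limma adjusted p = 0.201), and 2.76 ± 0.43 without the 4 doubted libraries (adjusted p = 0.000354).

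HSPA5, the chaperone BiP, was at 685, 990, 474 and 549 CPM in the same control morulae and at 107, 202, 110 and 252 CPM in knockouts 1, 5, 21 and 49. Its medians in knockout and control blastocysts were 638 and 665 CPM. The coefficient was 2.02 ± 0.96 (limma adjusted p = 0.341), and 2.17 ± 0.45 without the 4 doubted libraries (adjusted p = 0.00906). CRELD2, induced by reticulum stress, had 2.50 ± 0.79 (limma adjusted p = 0.145) and 2.06 ± 0.49 (adjusted p = 0.0299) in those fits. SEL1L, which acts in degradation of misfolded proteins, had 1.23 ± 0.65 (limma adjusted p = 0.401) and 1.61 ± 0.38 (adjusted p = 0.0298).

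Genes of cell junctions were mostly positive as well. All 33 cell junction genes were tested, and 29 (87.9%) were positive, against 73.9% of all tested genes. Of the 33, 24 lay above the median of all genes, and the list median was 0.79 (0.39 without the 4 doubted libraries). CLDN4, a tight junction claudin that is also in the trophectoderm list, was at 237, 487, 291 and 758 CPM in control morulae 39, 41, 54 and 73. Knockout morulae 1, 5, 21 and 49 held 44.8, 213, 18.3 and 196 CPM, all below the controls. Knockout blastocysts ran from 321.5 to 862.5 CPM and control blastocysts from 135 to 1078 CPM. The coefficient was 2.19 ± 0.81 (SE; limma adjusted p = 0.204), and 1.96 ± 0.40 without the 4 doubted libraries (adjusted p = 0.00725). DSC2, a desmosomal cadherin, had 2.31 ± 0.70 (limma adjusted p = 0.142) and passed without control blastocyst 12 (adjusted p = 0.0374), not without all 4 (0.283).

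Hippo pathway genes, which set inside and outside fates, were all positive (21 of 21), where 73.9% of all tested genes were. Of the 21, 16 lay above the median of all genes. The list median was 0.83, or 0.36 without the 4 doubted libraries, and none of the list passed there. TEAD4, the transcription factor that drives trophectoderm fate in mouse embryos, had 98.3 to 161 CPM in control morulae. Knockout morulae 1, 5, 21 and 49 held 62.7, 85.0, 0 and 84.0 CPM, and the coefficient was 1.95 ± 0.70 (limma adjusted p = 0.201). Among genes of blastocoel ion and water transport 12 of 17 were tested, 9 were positive, and the median was 0.75. SLC4A7, a bicarbonate transporter, had the smallest p of that list, with 1.56 ± 0.55 (limma adjusted p = 0.195).

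The lists of the inner cells differed from each other in their medians. For epiblast and pluripotency 20 of 27 genes were tested, and 13 (65.0%) were positive, against 73.9% of all tested genes. Of the 20, 8 lay above the median of all genes. The list median was 0.24, which became −0.28 without the 4 doubted libraries. No member reached an unadjusted p under 0.05. TDGF1, a co-receptor of NODAL, had −1.14 ± 0.81 (limma adjusted p = 0.562), and PRDM14, a pluripotency regulator, had 0.97 ± 0.68 (adjusted p = 0.555). For hypoblast 18 of 20 genes were tested, 16 (88.9%) were positive and 11 lay above the median of all genes. That list median was 0.97 (0.32 without the 4). LAMB1, a basement membrane laminin, had 2.0 ± 0.73 (limma adjusted p = 0.203) and PDGFRA, a receptor of hypoblast cells, had 1.63 ± 0.61 (adjusted p = 0.215).

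Downstream genes of the CSF2 receptor had a median near that of all genes. Of 41 listed genes 34 were tested, and 23 (67.6%) were positive, against 73.9% of all tested genes. Of the 34, 18 lay above the median of all genes, and the list median was 0.52 (0.21 without the 4). LYN, a kinase bound to the receptor's signalling subunit, was at 82.3, 147, 92.4 and 132 CPM in control morulae 39, 41, 54 and 73. Knockout morulae 1, 5, 21 and 49 held 8.95, 63.8, 0 and 0 CPM, all below the controls. Knockout and control blastocysts had medians of 83.8 and 98.1 CPM. The coefficient was 2.67 ± 0.70 (limma adjusted p = 0.127), and it passed without control blastocyst 12 (adjusted p = 0.0135), not without the 4 doubted libraries (0.0719).

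CCND2, a G1 cyclin and target of STAT5, had 169 to 297 CPM in control morulae and 0 to 107 CPM in knockout morulae. Its coefficient was 2.55 ± 0.79 (limma adjusted p = 0.145), with an adjusted p of 0.0175 without control blastocyst 12 and 0.134 without the 4. STAT5B, a transcription factor of the pathway, was at 0 in the knockout morulae and at 6.04, 3.96, 11.8 and 22.0 CPM in control morulae. The control mean was 10.95 ± 8.06 CPM (SD, n = 4), close to the 10.1 CPM that 0 reads over the knockouts allow. Its coefficient was 1.28 ± 0.40 (limma adjusted p = 0.145). MAP2K2, a MAP kinase kinase, passed without the 4 doubted libraries at 1.84 ± 0.41 (adjusted p = 0.0169) and had 1.62 ± 0.73 with all embryos (0.318).

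Growth and metabolic lists are read against all tested genes, of which 73.9% were positive, with medians of 0.43 and, without the 4 doubted libraries, 0.15. Of 18 tested glycolysis genes 14 (77.8%) were positive (median 1.11, and 0.51 without the 4). HK2, or hexokinase, had the smallest p among them, with 1.83 ± 0.74 (limma adjusted p = 0.249). The glucose transporter SLC2A1 had 307 to 452 CPM in control morulae and 0 to 251 CPM in knockout morulae, with 1.97 ± 0.82 (adjusted p = 0.264). Of 34 tested genes of the lysosome and proton pump 31 were positive (median 1.02, and 0.43 without the 4). CTSH, a lysosomal protease, had 2.16 ± 0.74 (limma adjusted p = 0.178), or 1.92 ± 0.46 without the 4 (adjusted p = 0.0327). Heat shock chaperones had 24 of 25 positive (median 0.94, and 0.25 without the 4), and the co-chaperone BAG3 had 1.96 ± 0.53 (limma adjusted p = 0.127).

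In the p53 response 19 of 22 tested genes were positive, with a median of 0.71 (0.42 without the 4). SFN, the epithelial protein 14-3-3 sigma, which is also in the trophectoderm list, had 377 to 714 CPM in control morulae and 0 to 223 CPM in knockout morulae. Its coefficient was 2.77 ± 0.99 (limma adjusted p = 0.198), or 1.92 ± 0.44 without the 4 doubted libraries (adjusted p = 0.022). Of 40 tested cell cycle genes 32 (80.0%) were positive, a share near that of all genes (median 0.53, and −0.08 without the 4). CCNE1, the cyclin of S phase entry, had 35.7 to 102 CPM in control morulae and 0 to 28.0 CPM in knockout morulae, with 2.27 ± 0.63 (limma adjusted p = 0.127) and 2.21 ± 0.50 (adjusted p = 0.0212) in these fits. Chromatin modifiers had 36 of 41 positive, with a median of 0.70 that was 0.10 without the 4. SUV39H1 was the member that passed there (adjusted p = 0.0447).

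Cholesterol synthesis was the described list with a negative median. Of 22 tested genes 9 (40.9%) were positive, against 73.9% of all tested genes, and 13 were negative. Of the 22, 3 lay above the median of all genes. The list median was −0.19, or −0.18 without the 4 doubted libraries and −0.59 with quantile normalization. With a pseudocount of 1 CPM its sign turned, to 0.26, against 1.13 for all genes. INSIG1, a sterol-sensing regulator, was the member with an unadjusted p under 0.05. Control morulae 39, 41, 54 and 73 held 7.69, 0, 7.10 and 22.0 CPM, and knockout morulae 1, 5, 21 and 49 held 8.95, 10.6, 36.6 and 56.0 CPM. Those knockout values are only 1, 1, 2 and 2 reads. The range in knockout blastocysts was 0 to 19.1 CPM (median 7.52) and in control blastocysts 1.35 to 128 CPM (median 37.9). Both pairs of groups overlapped, with their medians in opposite order. The coefficient was −2.09 ± 0.74 (SE; limma adjusted p = 0.201), or −1.12 ± 0.93 without the 4 doubted libraries (adjusted p = 0.623).

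**Figure D4:**
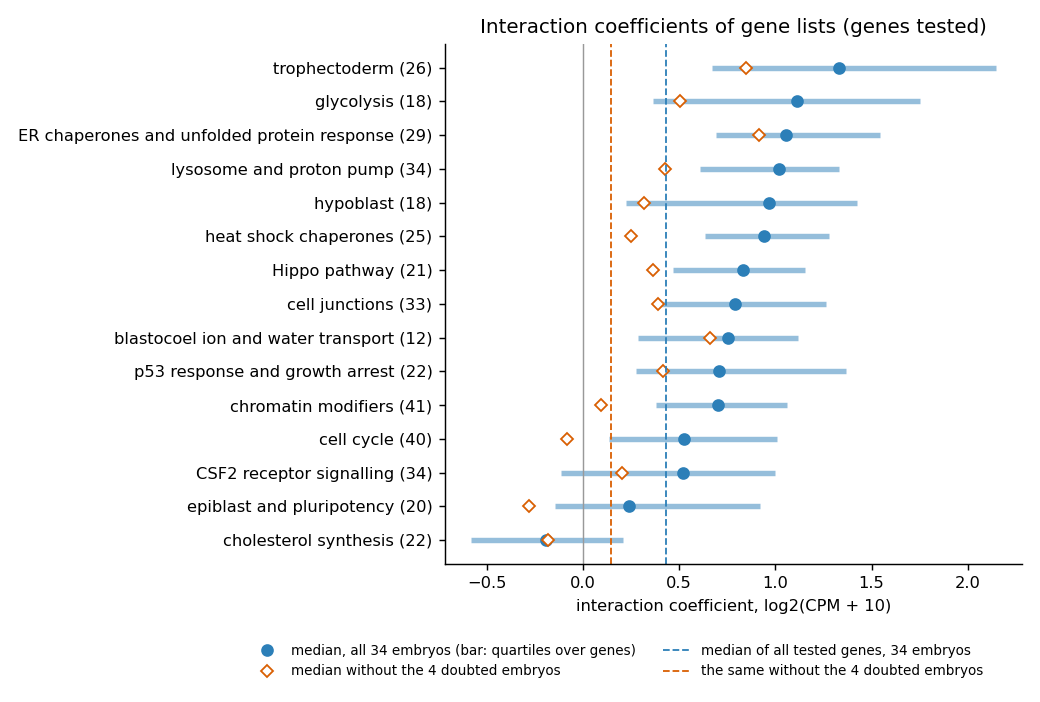
Each row is a gene list with the number of genes tested, and the horizontal axis is the interaction coefficient on the log2(CPM + 10) scale. Circles and bars give the median and quartiles over genes with all 34 embryos, diamonds the median without the 4 doubted libraries, and dashed lines the medians of all genes (0.43 and 0.15). Trophectoderm (1.33 and 0.85) and endoplasmic reticulum chaperones (1.06 and 0.91) lie to the right of both lines, and cholesterol synthesis (−0.19 and −0.18) to the left.

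The balance of signs and the number of calls changed with the way of processing. Voom called 0 genes, with 154 positive and 75 negative at an unadjusted p under 0.05, where limma-trend called 3. Voom with sample quality weights called 3 other genes, with 288 positive and 432 negative. A pseudocount of 1 CPM gave 82 calls, all positive, and one of 50 CPM gave 5. After thinning there was 1 call, with 768 positive and 132 negative.

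**Figure D5:**
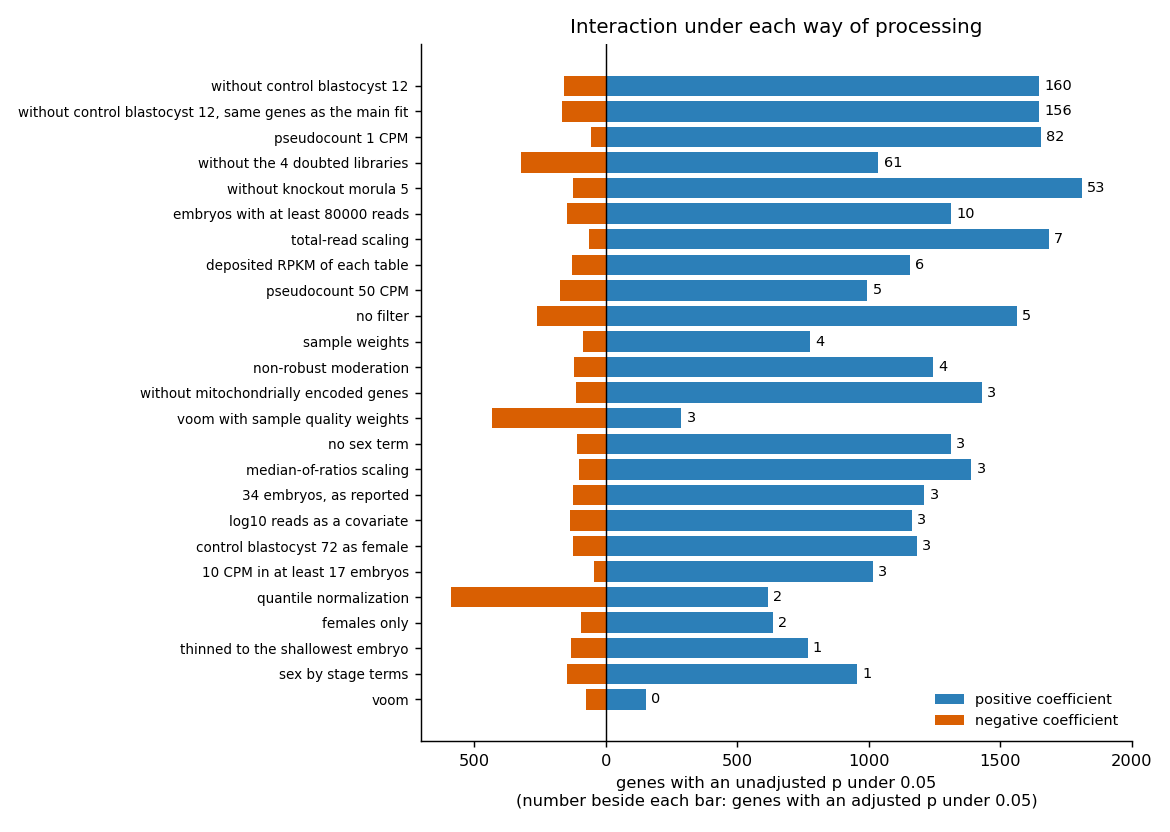
Bars count genes with an unadjusted p under 0.05, positive coefficients to the right and negative to the left, for each way of processing, and the number beside a bar is the count of genes with an adjusted p under 0.05. Positive genes outnumber negative ones in all fits shown except voom with sample quality weights (288 and 432), and quantile normalization comes near balance (616 and 589). Calls range from 0 with voom to 160 without control blastocyst 12.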

How the data were processed

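Single bovine embryos were sequenced with a stranded mRNA kit, per the labels. Per the submitters' processing notes, the authors used FastQC, featureCounts and edgeR on ARS-UCD1.2; versions are not given in the sources used here. The deposited values are RPKM per gene and embryo, over the gene's genomic span, in 1 blastocyst table (18442 genes) and 1 morula table (14878 genes, unit inferred from its values), which the authors normalized separately.

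Tables were joined on gene ID (14494 genes; 3948 and 384 in the blastocyst or morula table alone were left out). Reads were recovered from RPKM and gene length and were whole for 100% of values within 0.01 reads. Embryos were scaled jointly by TMM. The test was limma-trend (limma 3.58.1, R 4.3.3), robust, two-sided, on log2(CPM + 10), with genotype, stage, their interaction and sex, and Benjamini-Hochberg adjustment at 0.05 over 9979 genes with at least 10 CPM in at least 4 embryos. The count test on the recovered reads was voom. The script was tested on simulated data, where most calls were right and some were wrong. Library measures were tested by exact permutation of genotype within stage. Depth ran from 43672 to 17579784 reads. Titles gave the sex; control blastocyst 72, male by title and female by column name, was also tried as female.

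Named genes were, per direction, the 12 with a symbol and the largest coefficient among those called, then the smallest p, with reads in at least 10 embryos and at most 50% of their CPM in 1 embryo. Up to 3 members per list with the smallest p and genes called in other fits were added. LTF and the markers at 0 were named as markers. Members and lists were chosen with earlier results of these data known. Alternatives changed scaling, pseudocount, filter, test, sex, depth and libraries. Lists overlap in some genes.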

Additional observations from a re-analysis of the deposited data

Results flagged for a closer look

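The interaction of 3 genes passed the test of the difference between stages, with coefficients of 2.9585 for RBM19, 2.8041 for RAPGEF5 and 2.7029 for MOB3B on the log2(CPM + 10) scale.

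For the 24 genes named by rank and 6 library measures, 84 groups of 4 to 10 embryos were examined for 1 embryo far from the rest, and 12 were found, all in genes, where chance gives about 1 in 20 groups. These genes were ranked on the same values. In 5 of the 12 groups, all of knockout morulae, 3 of 4 embryos had 0 reads. The same held for 3 of 4 control morulae with AUTS2 and with ETV2. That rate therefore does not carry over to these genes. All values are log2(CPM + 10). In knockout morula 1 the level was 4.2445 for MOB3B, 4.8026 for SPSB4 and 4.2445 for INTS6, each above the other 3 embryos at 0 reads. In knockout morula 5 it was 4.3665 for GCA and 4.966 for CAMK2G, also above 3 embryos at 0. In knockout morula 21 it was 3.3219, which is 0 reads, for both CCNA1 and AUTS2, below the other 3. Among control morulae, CCNA1 stood high in embryo 41 (3.8034, which is 1 read). In control morula 39, AUTS2 (4.2729, 17 reads) and ETV2 (3.399, 1 read) stood high. Among knockout blastocysts, CCNA1 stood high in embryo 57 (4.7045, which is 1 read) and KBTBD8 in embryo 4 (5.0256).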

How the results depend on the processing

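No paired analysis was possible because no 2 groups share embryo numbers. Against 3 calls, the count of called genes was 7 with total-read scaling, 6 with the deposited RPKM of each table, 82 and 5 with pseudocounts of 1 and 50 CPM, 5 with no filter, 0 by voom, 1 with sex by stage terms, 1 after thinning, 10 in embryos with at least 80000 reads, 61 without the 4 doubted libraries and 156 without control blastocyst 12 on the same genes, an alternative chosen after seeing the data. Leaving out 1 embryo gave 2 to 160 calls. The median coefficient was −0.0415 with quantile normalization, −0.0528 by voom with quality weights, 0.2045 with deposited RPKM, 1.1289 and 0.1286 with those pseudocounts, and 0.1458 without the 4, and 0.342 to 0.5791 leaving out 1 embryo. The cause was not tested.

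Signs turned for PRDM14 (−0.114 by voom with quality weights, −0.2996 without the 4), COL4A2 (−0.1541) and LSS (0.1568) without the 4, and KLF17 (0.6301) and CDC25B (−0.0853) after thinning. Among library measures, leaving out 1 embryo gave interactions of −0.0116 to 0.3921 in log10 reads, −1.0934 to 1.4857 points in mitochondrial percent (0.9304 without the 4), 1180.4 to 2464.4 in genes at equal depth, −33.016 to −12.574 points in the 10 largest genes (−1.9385 without the 4) and 0.0697 to 0.1665 in the log10 scaling factor. Knockout morulae have few reads, so genes under about 10 CPM there could not be followed.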

Other observations

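Lists not described above lay on both sides of the median of all genes (0.43). Of 28 tested genes of fatty acid metabolism 23 were positive (median 0.77), and of 17 amino acid transporters 15 were (median 0.78). Nuclear genes of oxidative phosphorylation had 57 of 74 positive and a median of 0.37, which became −0.44 without the 4 doubted libraries. Cytosolic ribosomal protein features had 54 of 77 positive and a median of 0.19, which became −0.26 without the 4. Mitochondrially encoded genes had 9 of 13 positive and medians of 0.12 and 0.52. Histone genes had 4 of 11 positive (median −0.16).

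Several genes outside these lists passed without the 4 doubted libraries. AKR1B1, an aldo-keto reductase, had 3.87 ± 0.55 (SE; limma adjusted p = 0.000173) there, against 1.96 ± 0.84 with all embryos (0.284). It was at 195, 614, 154 and 505 CPM in control morulae 39, 41, 54 and 73, and at 0, 31.9, 494 and 140 CPM in knockout morulae 1, 5, 21 and 49. Knockout morula 21 lies within the range of the controls, and the fit without the 4 doubted libraries leaves it out. RCN1, a calcium-binding protein of the endoplasmic reticulum, had 2.69 ± 0.48 (limma adjusted p = 0.00181) against 2.17 ± 0.61 (0.127). ARPC1B, a subunit of the actin-nucleating ARP2/3 complex, had 2.75 ± 0.52 (limma adjusted p = 0.00419) against 2.70 ± 0.88 (0.162).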
